A study of Mus musculus with 6 samples.

Results

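Marrow adipocyte and adipokine genes were examined in bone marrow of diabetic and wild type mice. The 10 genes were chosen by symbol: Adipoq, Plin1, Fabp4, Cidec, Pparg, Cebpa, Lpl, Cfd, Retn and Lep. Of these, 9 had a probe set with exactly 1 gene symbol in the platform table, out of 19938 genes measured in that way, and no filter on level was applied. Cfd, the serine protease adipsin, had no probe set with its symbol alone and was not analysed here. Each of the 9 genes had 1 probe set.

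The marrow was flushed with buffer from the shafts of femurs and tibiae of male mice aged 10 weeks. The 3 wild type samples carry the genotype label BKS.Cg-Dock7m +/+ Leprdb/JNju and the 3 diabetic samples the label BKS.Cg-Dock7m -/- Leprdb/JNju. Both groups thus share the BKS background and a strain name with the Dock7m and Leprdb alleles, and the labels do not say which alleles each wild type animal carried. The db change in the leptin receptor gene leaves mice obese, hyperglycaemic and with high circulating leptin, and it is carried in every tissue, so the model is not one of marrow alone. The labels name no sorting step and do not say whether a sample was 1 animal or a pool, so each p-value reflects only how far these samples spread, which may be technical.

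Adipocytes store triglyceride in a large lipid droplet and secrete hormones called adipokines. PPAR gamma and C/EBP alpha, encoded by Pparg and Cebpa, are the transcription factors that switch on the adipocyte program, and many of their targets are the droplet proteins and adipokines examined here. In marrow, adipocytes arise from stromal progenitors and share the cavity with blood-forming cells. Several of these genes are not restricted to adipocytes: Cebpa is needed for granulocyte formation, and macrophages can express Lpl, Pparg and Fabp4.

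The values are log2 signals per probe set after robust multi-array averaging (RMA), in which the distributions of the arrays are made equal. The median log2 signal lay between 7.67 and 7.73 over the 6 arrays, and correlations between arrays over the 19938 genes lay between 0.9914 and 0.9967. With 3 arrays in each group, precision is limited by their number. Across all genes, 57 of 19938 (0.286%) passed a threshold of 0.05 on the limma p adjusted by Benjamini-Hochberg. The comparison of the 9 genes asks whether the adipocyte program differed between diabetic and wild type marrow.

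None of the 9 genes passed that threshold, and 1, Lpl, had an unadjusted p under 0.05 in limma, where 5.90% of all genes did. Lpl, Fabp4 and Cebpa had the largest positive differences, 1.24-fold, 1.17-fold and 1.09-fold. Adipoq and Lep, the genes for adiponectin and leptin, had signals within the bulk of those of odorant and vomeronasal receptor genes, which serve here as a floor. Plin1, Retn, Pparg and Cidec differed between group means by at most 0.05 on the log2 scale. Of the 9 genes, 6 had a log2 change above 0 and 3 below, where 51.7% of all genes were above 0, and the median change was 0.05 beside 0.00 over all genes.

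**Figure D1:**
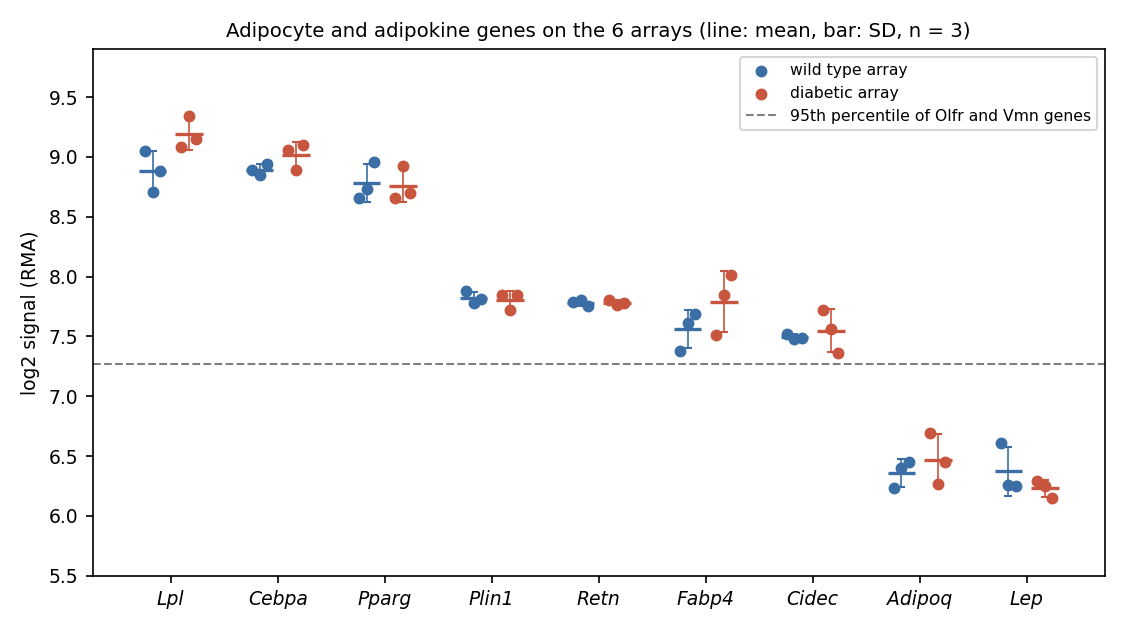
Log2 signals of the 9 genes on the 6 arrays, ordered by mean level, with wild type arrays in blue and diabetic arrays in red. Horizontal lines are means and bars standard deviations (n = 3), and the dashed line at 7.27 is the 95th percentile of odorant and vomeronasal receptor genes. Lpl alone among the 9 has diabetic points that all lie above the wild type points, and Adipoq and Lep lie under the dashed line on every array.

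Signals were first set against a floor. Odorant and vomeronasal receptor genes, those with symbols starting in Olfr or Vmn, are used in sensory neurons, and 1194 of them had probe sets here. Their mean log2 signals ran from 2.69 to 9.86 with a median of 5.58 and a 95th percentile of 7.27. Probe sets differ in affinity, so this ranks signals and not transcript numbers, and some of these receptors may be expressed.

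The Adipoq signal was under 7.27 on every array, and 22.3% of the receptor genes had a mean at or above that of Adipoq. The same held for Lep, where 26.1% of the receptor genes were at or above its mean. These are the adipokines most restricted to adipocytes, and neither was above the floor in either group. With these defining markers at the floor, the 9 genes are described by symbol and not as a readout of adipocyte number.

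The other 7 genes had at least 1 array above 7.27. For the droplet genes Cidec and Plin1, 2.85% and 1.84% of the receptor genes were at or above the mean, and for Fabp4 and Retn these shares were 1.93% and 1.84%. For Pparg, Cebpa and Lpl the shares were 0.251%, 0.168% and 0.168%. The genes with the firmest signal were therefore the pair of transcription factors and the lipase, which other marrow cells can also express.

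**Figure D2:**
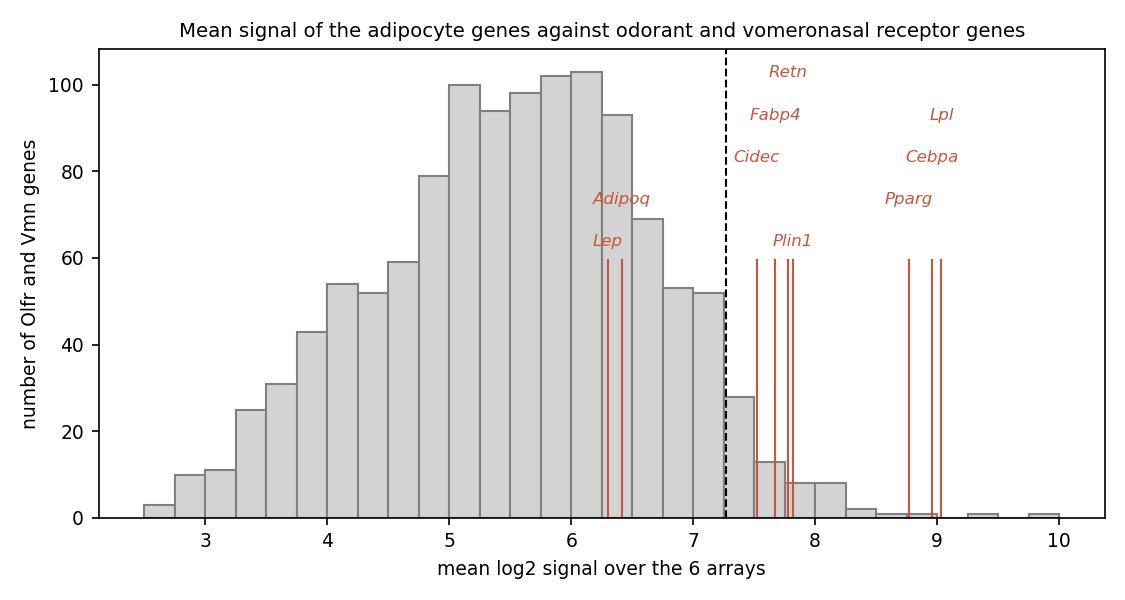
Mean log2 signal over the 6 arrays of 1194 odorant and vomeronasal receptor genes (grey bars, number of genes per bin) and of the 9 adipocyte and adipokine genes (red lines). The dashed line marks the 95th percentile of the receptor genes, 7.27. Lep and Adipoq lie inside the bulk of the receptor genes, Cidec, Fabp4, Retn and Plin1 in their upper tail, and Pparg, Cebpa and Lpl beyond nearly all of them.

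The regulators came next. Pparg, the nuclear receptor that is the master regulator of fat cell formation, read 8.66, 8.73 and 8.96 on wild type arrays and 8.66, 8.92 and 8.70 on diabetic arrays. The groups overlapped fully, and the log2 change was -0.03 ± 0.10 (SE, n = 3 per group), with a 95% confidence interval from -0.26 to 0.20. A change of Pparg beyond 1.15-fold upward thus lay outside the interval. The probe set does not tell the ubiquitous transcript of Pparg from the adipocyte transcript, which begins at a start of its own.

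Cebpa, which sustains the adipocyte state and also drives granulocyte formation, read 8.89, 8.85 and 8.94 in wild type marrow. In diabetic marrow it read 9.06, 8.89 and 9.10. Diabetic arrays 1 and 3 were above every wild type array, while diabetic array 2 lay within the wild type range. The log2 change was 0.13 ± 0.08 (SE, n = 3 per group), and the limma p adjusted by Benjamini-Hochberg was 0.961. Leaving out 1 array moved the log2 change between 0.08 and 0.19.

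C/EBP alpha binds DNA at a short palindrome, which allowed a look at whether the genes share a sequence feature in their promoters. RefSeq promoter windows (GRCm38.p6, 250 bases before to 50 after a transcript start) were available for 8 of the 10 genes, in 11 windows. Those of Fabp4 and Lpl were not used here. The motif TTGCNNAA, searched on both strands, was found in 4 of 11 windows, 1 each of Lep, Cidec, Plin1 and Pparg, and in 10.8% of all 32851 windows. The Pparg match lay in the window of 1 of its 3 starts, the one farthest downstream. PPAR gamma binds with its partner RXR at a direct repeat of AGGTCA with 1 base between the copies. Searched again on both strands, this repeat was found in 0 of 11 windows and in 0.0396% of all windows, so none overlapped the other motif. Since only 13 of the 32851 windows hold these exact letters, 0 of 11 could hardly have come out otherwise. It shows nothing about PPAR gamma sites in these promoters. A match is a description of letters, not of binding. The 3 windows below carry the C/EBP letters at a start of a droplet gene, an adipokine gene and a regulator, with the matches in capitals.
Lep (chr6:29059971-29060270, + strand): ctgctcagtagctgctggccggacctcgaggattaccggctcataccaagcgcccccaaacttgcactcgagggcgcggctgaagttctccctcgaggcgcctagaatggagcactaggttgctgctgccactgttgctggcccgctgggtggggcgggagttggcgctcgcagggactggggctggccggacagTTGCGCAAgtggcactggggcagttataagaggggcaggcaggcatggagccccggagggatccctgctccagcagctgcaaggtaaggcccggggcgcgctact
Plin1 (chr7:79732727-79733026, - strand): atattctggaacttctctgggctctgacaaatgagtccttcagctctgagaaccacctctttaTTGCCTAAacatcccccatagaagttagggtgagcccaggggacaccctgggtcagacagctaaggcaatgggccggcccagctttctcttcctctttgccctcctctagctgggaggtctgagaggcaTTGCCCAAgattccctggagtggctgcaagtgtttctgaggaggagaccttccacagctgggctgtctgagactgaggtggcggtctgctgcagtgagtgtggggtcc
Pparg (chr6:115421816-115422115, + strand): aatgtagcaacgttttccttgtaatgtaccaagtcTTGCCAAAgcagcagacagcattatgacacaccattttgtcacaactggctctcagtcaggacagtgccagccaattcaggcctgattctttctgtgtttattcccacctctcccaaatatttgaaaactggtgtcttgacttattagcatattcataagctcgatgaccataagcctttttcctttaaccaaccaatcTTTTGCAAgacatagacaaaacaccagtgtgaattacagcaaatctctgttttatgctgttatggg
The Lep match starts 55 bases before the transcript start, the Plin1 matches 187 and 58 bases before it and the Pparg matches 215 and 16 bases before it. The log2 changes of the 4 genes with a match were -0.14 for Lep, -0.02 for Plin1, -0.03 for Pparg and 0.05 for Cidec, and neither they nor Cebpa passed.

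Of the wider list of regulators of adipocyte formation, 25 of 27 genes were measured. None passed the threshold in limma after Benjamini-Hochberg adjustment, 0 had an unadjusted p under 0.05, and the list had 12 genes above 0 and 13 below, with a median of -0.00. Nr1h3, the oxysterol receptor LXR alpha, was at -0.17 ± 0.08 (SE, n = 3 per group). Rxra, the partner of PPAR gamma, was at 0.10 ± 0.06, and Stat5b, a mediator of growth hormone signals, at 0.10 ± 0.07.

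Ebf1, an early factor of both fat and B cells, was at -0.45 ± 0.29 (SE, n = 3 per group), the lowest value of the list. It read 11.92, 11.74 and 10.62 on wild type arrays and 10.91, 11.06 and 10.96 on diabetic arrays. The wild type values straddled the diabetic ones with wild type array 3 the lowest of all. Without that array the change of Ebf1 was -0.86, and the limma p adjusted by Benjamini-Hochberg was 0.0138. B cell precursor markers, a list that also holds Ebf1, had a summed linear signal of 14555 on wild type array 3, against 31104 and 26474 on the other wild type arrays and 16317 to 20697 on the diabetic arrays. Of the 12 genes of that list, 11 were measured and all 11 were below 0, with a median of -0.41, and none passed. In limma 1 of the 11 had an unadjusted p under 0.05, where 5.90% of all genes did. The part of these cells in the Ebf1 values was not tested.

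Lpl, lipoprotein lipase, frees fatty acids from circulating triglyceride and had the smallest p of the 9 genes. It read 9.05, 8.71 and 8.88 on wild type arrays and 9.08, 9.34 and 9.15 on diabetic arrays. Every diabetic array was above every wild type array, though the lowest diabetic and the highest wild type value were close.

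Such a separation upward was seen for 1 of the 9 genes and for 6.01% of all genes. In the other direction it was seen for 0 of the 9 and for 4.81% of all genes, and in either direction for 10.8%. The log2 change of Lpl was 0.31 ± 0.10 (SE, n = 3 per group), 1.24-fold, with a 95% confidence interval of 1.06-fold to 1.47-fold. Its unadjusted p in limma was 0.0152, rank 434 of 19938 genes, and its adjusted p after Benjamini-Hochberg was 0.697. The change ran from 0.23 without wild type replicate 2 to 0.40 without wild type replicate 1.

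**Figure D3:**
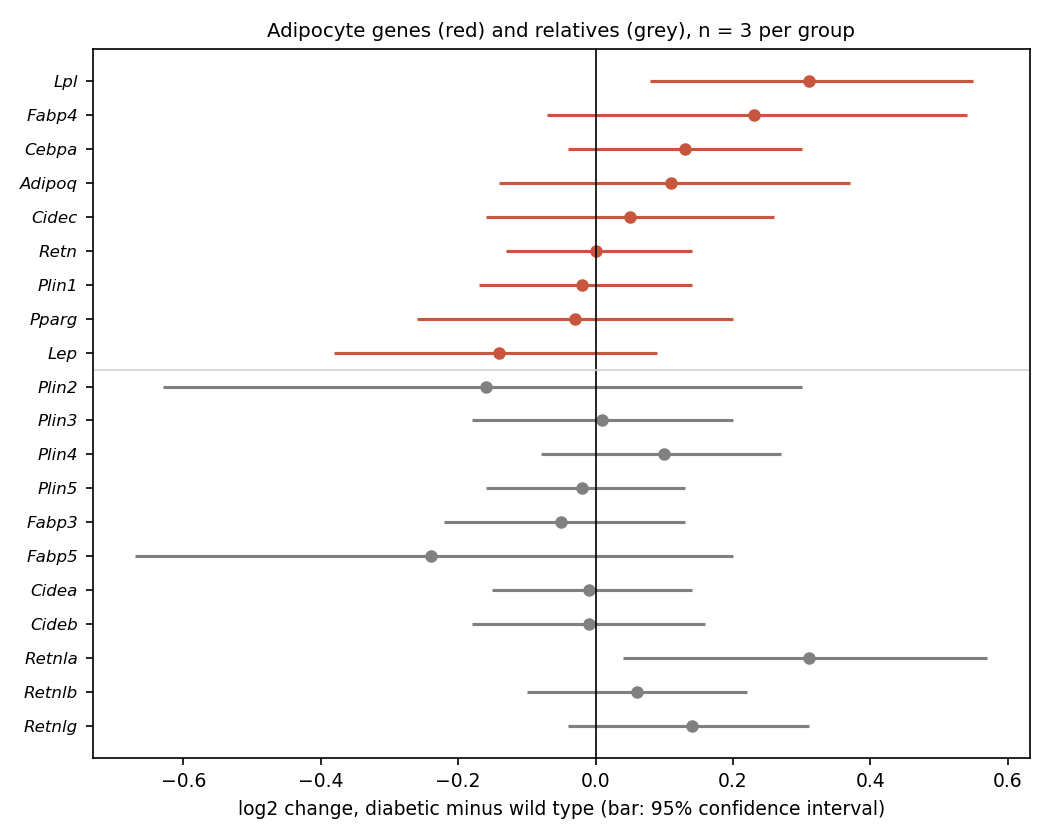
Log2 change (diabetic minus wild type) with its 95% confidence interval from limma for the 9 genes in red and for named relatives of Plin1, Fabp4, Cidec and Retn in grey (n = 3 per group). The interval of Lpl runs from 0.08 to 0.55 and is the one of the 9 that leaves out 0, and among the relatives the interval of Retnla also does.

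The proteins that work with Lpl and carry fatty acids into cells did not shift as a list. Of 16 genes, 13 were measured, 5 above 0 and 8 below, with a median of -0.05, and none passed in limma after Benjamini-Hochberg adjustment. Lrp1, a receptor that takes up lipoprotein remnants, was the 1 gene of the list with an unadjusted p under 0.05, where 5.90% of all genes had one. Its log2 signals were 9.99, 9.84 and 9.87 in wild type and 10.16, 10.08 and 10.29 in diabetic marrow, with no overlap. It was the 1 gene of the 13 without overlap, where 10.8% of all genes had none in either direction. Genes named for the smallest p of a list are more apt to separate. The change of Lrp1 was 0.27 ± 0.08 (SE, n = 3 per group), and the limma p adjusted by Benjamini-Hochberg was 0.570. With array weights the change was 0.32 and the adjusted p 0.0498 in the same test. Those weights put 4.38 on wild type array 2, the lowest array for Lrp1. With them 235 of all genes passed, against 57 in the main fit. Without that array the change of Lrp1 was 0.24, and it did not pass.

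Lmf1, a factor that folds lipases in the endoplasmic reticulum, was at -0.14 ± 0.07 (SE, n = 3 per group). Slc27a1, a fatty acid transporter, was at -0.11 ± 0.07. Angptl4, an inhibitor of Lpl that is also an adipokine, was at -0.13 ± 0.09. Fabp5, the relative of Fabp4 found in macrophages and skin, was at -0.24 ± 0.19, and it ran to 0.00 without wild type replicate 3, whose 9.38 stood above the other arrays at 8.52 to 8.87. Fabp3, the heart form, was at -0.05 ± 0.08 and not above the floor.

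Fabp4, the fatty acid carrier of adipocytes, endothelium and macrophages, read 7.38, 7.61 and 7.69 on the wild type arrays. On the diabetic arrays it read 7.51, 7.85 and 8.01. Diabetic arrays 2 and 3 were above every wild type array, and diabetic array 1 was within their range. The log2 change was 0.23 ± 0.13 (SE, n = 3 per group), with a 95% confidence interval from -0.07 to 0.54 and a limma p, adjusted by Benjamini-Hochberg, of 0.958. Fabp4 was the noisiest of the 9 genes, with a pooled standard deviation within groups of 0.21 beside a median of 0.10 over all genes. It was at 0.12 without diabetic replicate 3 and at 0.37 without diabetic replicate 1.

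Plin1 coats the lipid droplet and gates lipolysis. It read 7.88, 7.78 and 7.81 in wild type and 7.85, 7.72 and 7.85 in diabetic marrow. The groups overlapped, and the log2 change was -0.02 ± 0.07 (SE, n = 3 per group), with an interval that allows at most a 1.10-fold rise in signal. The Plin1 signal lay in the upper tail of the receptor genes, so this bounds the signal and not the RNA. Among the relatives of Plin1, Plin2, the general droplet coat of many cells, was at -0.16 ± 0.20 with diabetic arrays at 10.69, 10.42 and 11.33. Without diabetic replicate 2 the Plin2 change was 0.03. Plin3 was at 0.01 ± 0.08, Plin4 at 0.10 ± 0.08 and Plin5 at -0.02 ± 0.06.

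Cidec fuses droplets into the single large one of white fat. It read 7.52, 7.48 and 7.49 on wild type arrays and 7.72, 7.56 and 7.36 on diabetic arrays. The diabetic values lay on both sides of a narrow wild type range, and the log2 change was 0.05 ± 0.09 (SE, n = 3 per group). Without diabetic replicate 1 it was -0.04. Its relatives Cidea, of brown fat, and Cideb, of liver, were both at -0.01, with Cidea not above the floor.

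Of 22 further droplet and triglyceride genes, 21 were measured, 12 above 0 and 9 below, with a median of 0.01, and none passed in limma after Benjamini-Hochberg adjustment. The 2 with an unadjusted p under 0.05, where 5.90% of all genes had one, act on the lipase Pnpla2, in opposite ways. Abhd5, its activator, read 10.52, 10.47 and 10.51 in wild type and 10.83, 10.59 and 10.78 in diabetic marrow. G0s2, its inhibitor, read 9.06, 9.05 and 9.04 in wild type and 9.37, 9.18 and 9.18 in diabetic marrow. Neither gene's groups overlapped, and the log2 changes were 0.23 ± 0.08 and 0.19 ± 0.07 (SE, n = 3 per group). These 2 were the only genes of the 21 without overlap, where 10.8% of all genes had none in either direction. Their adjusted p values were 0.701 and 0.763 in limma after Benjamini-Hochberg adjustment. Fitm1, a protein of droplet budding, was at -0.10 ± 0.09.

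Adipoq encodes adiponectin, a hormone made by fat cells that is known to raise insulin sensitivity. It read 6.23, 6.40 and 6.45 on wild type arrays and 6.69, 6.27 and 6.45 on diabetic arrays. Diabetic array 1 was the highest, and without it the change was 0.00. With all arrays the log2 change was 0.11 ± 0.11 (SE, n = 3 per group), with an interval from 0.90-fold to 1.29-fold, but at a signal not above the floor a difference is compressed.

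Lep encodes leptin, the fat hormone whose receptor is altered in these mice. It read 6.61, 6.26 and 6.25 in wild type and 6.29, 6.25 and 6.15 in diabetic marrow. One reading stood apart, wild type array 1, and without that array the change was -0.03. With all arrays it was -0.14 ± 0.10 (SE, n = 3 per group), and the limma p adjusted by Benjamini-Hochberg was 0.989.

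Retn encodes resistin, a hormone of mouse fat cells. It read 7.79, 7.80 and 7.75 on wild type arrays and 7.80, 7.76 and 7.78 on diabetic arrays. It was the steadiest of the 9 genes, with a pooled standard deviation of 0.02, and its log2 change was 0.00 ± 0.06 (SE, n = 3 per group). A change of signal beyond 1.10-fold upward or to under 0.91-fold lay outside its 95% confidence interval. The Retn signal lay in the upper tail of the receptor genes, so this bounds the signal and not the RNA.

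The resistin family has 3 further mouse genes. Retnlg, which neutrophils make in quantity, read 13.40, 13.37 and 13.20 in wild type and 13.51, 13.50 and 13.38 in diabetic marrow, a log2 change of 0.14 ± 0.08 (SE, n = 3 per group). Retnla, a product of alternatively activated macrophages and of fat, read 6.44, 6.32 and 6.39 in wild type and 6.97, 6.50 and 6.61 in diabetic marrow. Its groups did not overlap, yet no array was above 7.27. The log2 change of Retnla was 0.31 ± 0.12 (SE, n = 3 per group), and the limma p adjusted by Benjamini-Hochberg was 0.767. Retnlb, of the gut, was at 0.06 ± 0.07 and also not above the floor. The genes of this family are close in sequence, so signal of a probe set may include RNA of a relative.

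Of 21 other adipokine genes, 20 were measured, 13 above 0 and 7 below, with a median of 0.04, and none passed in limma after Benjamini-Hochberg adjustment. Of the 20, 8 were not above the floor. The smallest p was that of Metrnl, a secreted factor of fat, muscle and macrophages. It read 8.12, 7.97 and 8.11 in wild type and 8.38, 8.24 and 8.31 in diabetic marrow, with no overlap. Of the 20 genes, 3, among them Metrnl and Retnla, were higher without overlap and 1 lower, where 6.01% and 4.81% of all genes were. The change of Metrnl was 0.24 ± 0.07 (SE, n = 3 per group), and the limma p adjusted by Benjamini-Hochberg was 0.611. With array weights the change of Metrnl was 0.33, with an adjusted p of 0.0379 in the same test. Wild type array 2, which had the largest weight, was the lowest for Metrnl. Without that array the change was 0.19, and Metrnl did not pass. Nampt, which makes a precursor of NAD and is also secreted, was at -0.19 ± 0.09.

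Receptors for these hormones were well above the floor in part, but 3 of the 11 genes were not above it. Among these was Lepr, the leptin receptor gene, at -0.11 ± 0.08 (SE, n = 3 per group). All 11 genes of that list were measured, 8 above 0 and 3 below, with a median of 0.08, the highest of the 6 adipose-related lists, and none passed in limma after Benjamini-Hochberg adjustment. Insr, the insulin receptor, read 10.08, 10.11 and 10.07 in wild type and 10.22, 10.26 and 10.28 in diabetic marrow. Its groups did not overlap and the log2 change was 0.16 ± 0.06 (SE, n = 3 per group). Aplnr, the receptor of the adipokine apelin, read 8.68, 8.66 and 8.50 in wild type and 8.44, 8.24 and 8.34 in diabetic marrow, also without overlap, and its log2 change was -0.27 ± 0.08. Their adjusted p values were 0.748 and 0.606 in limma after Benjamini-Hochberg adjustment. Of the 11 genes, 1 was higher and 1 lower without overlap, where 6.01% and 4.81% of all genes were. The adiponectin receptor Adipor2 was at 0.12 ± 0.07 and the chemerin receptor Cmklr1 at -0.08 ± 0.06.

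**Figure D4:**
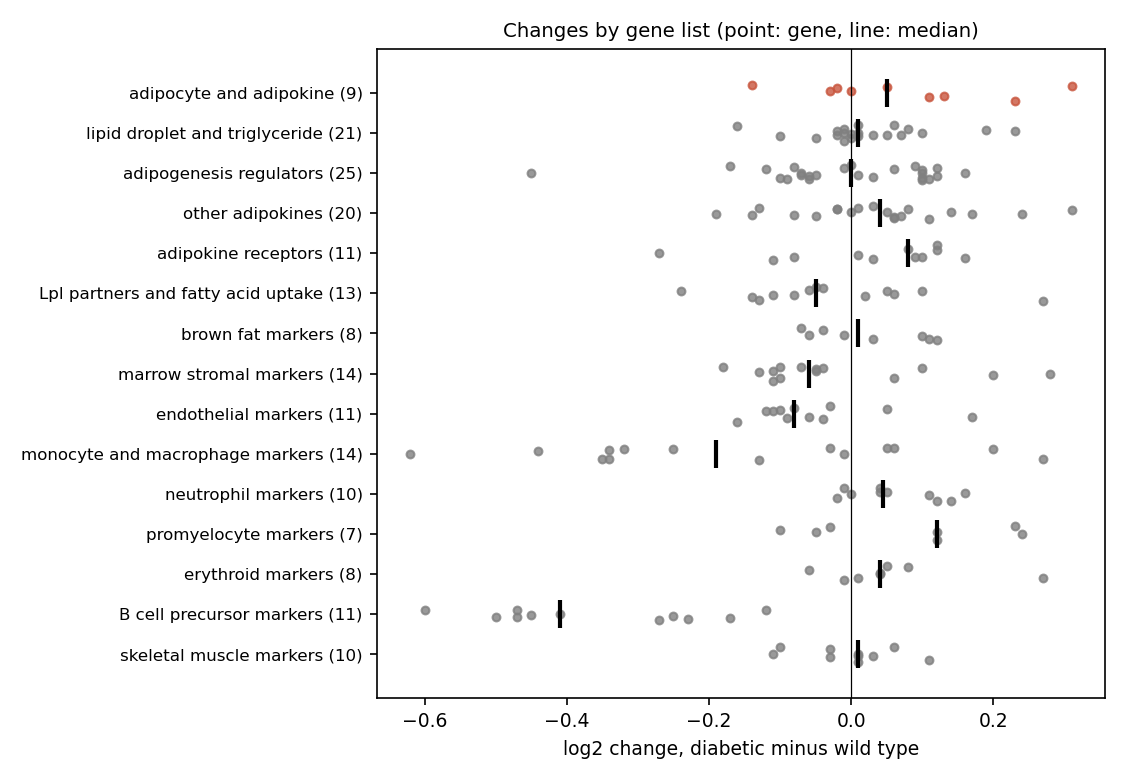
Log2 change (diabetic minus wild type) of each measured gene by list, with the number measured in parentheses, the list median as a black line, and the adipocyte and adipokine genes in red. No point of any list shown passed the adjusted threshold, and the adipose-related lists centre between -0.05 and 0.08.

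Brown fat markers centred at 0.01, with 4 of 8 genes above 0, and 4 of the 8, among them Ucp1, the heat-producing uncoupler of brown fat, were not above the floor. In bulk marrow, fewer cells of a type and less RNA per cell cannot be told apart, so the levels of other cell types' markers were set beside those of the 9 genes. Marrow stromal markers had 4 of 14 genes above 0 and a median of -0.06, and 4 of the 14 were not above the floor. Their summed linear signal was 4908 to 4960 on the wild type and 4746 to 4901 on the diabetic arrays. Much of that sum was Vcam1, which is also in the macrophage list, and without it the sums were 2743 to 2932 and 2755 to 3017, which overlapped. Endothelial markers had 2 of 11 above 0, a median of -0.08, and sums of 3440 to 3729 and 3420 to 3438. Tek, at 0.17 ± 0.07 (SE, n = 3 per group), was the 1 endothelial gene with an unadjusted p under 0.05 in limma. It was not above the floor. Of the 11 genes, 1, Tek, was higher without overlap and 1 lower, where 6.01% and 4.81% of all genes were. No gene of either list passed. Of the 14 stromal genes, 2 had an unadjusted p under 0.05 in limma, where 5.90% of all genes did. One was Pdgfrb, a receptor of stromal and mural cells, at 0.28 ± 0.08 (SE, n = 3 per group). The other was Kitl, the stem cell factor gene, at -0.18 ± 0.07, which was not above the floor. With array weights the limma p of Pdgfrb adjusted by Benjamini-Hochberg was 0.0374. Pdgfrb too was lowest on wild type array 2, which had the largest weight. Without that array the change was 0.22, and Pdgfrb did not pass.

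Macrophages can express Lpl, Pparg and Fabp4. Of 16 monocyte and macrophage markers, 14 were measured, 4 above 0 and 10 below, with a median of -0.19. In limma 7 had an unadjusted p under 0.05, where 5.90% of all genes did, and 0 passed after adjustment. This list was chosen with earlier results of these data known. C1qb, a complement chain of resident macrophages, was at -0.62 ± 0.12 (SE, n = 3 per group), Siglec1 at -0.34 ± 0.08, Mrc1 at -0.34 ± 0.09 and Cd68 at -0.25 ± 0.08. Not all markers went this way: Adgre1, a macrophage surface receptor, was at 0.27 and the chemokine receptor Cx3cr1 at 0.20, while the monocyte receptors Ccr2 and Csf1r were at 0.05 and -0.01. The summed signal of the list was 33130 to 33640 in wild type and 30227 to 32971 in diabetic marrow. Cebpa and Retnlg are genes of the neutrophil lineage. Neutrophil markers, a list that also holds Retnlg, had sums of 90547 to 97491 in wild type and 91767 to 102834 in diabetic marrow. Promyelocyte markers had sums of 35723 to 38787 and 32593 to 40667, erythroid markers 47570 to 61977 and 51924 to 61901, and skeletal muscle markers 2018 to 2203 and 2076 to 2210. The part of any of these cell types in the values of the 9 genes was not tested.

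The summed linear signal of the 9 genes was 2387, 2279 and 2449 on wild type arrays and 2506, 2607 and 2567 on diabetic arrays. The sums did not overlap, and their ratio was 1.08. This was not particular to the 9 genes. Other adipokines had sums of 32080 to 32898 in wild type and 33303 to 34954 in diabetic marrow, also without overlap. In that list Lcn2 and Retnlg were the brightest genes, at mean log2 signals of 13.99 and 13.33 in wild type marrow. In diabetic marrow they were at 14.01 and 13.46. A linear sum follows its brightest genes, and sums without these were not taken. Adipokine receptors had 21742 to 22150 and 22631 to 23970. The brightest genes there were Cap1 and Adipor1, at mean log2 signals of 13.41 and 12.67 in wild type marrow. In diabetic marrow they were at 13.51 and 12.76, and sums without them were not taken either. The stromal (with Vcam1), endothelial and macrophage sums above did not overlap either, with diabetic sums lower, but their edges were close. The lowest wild type and highest diabetic sums were 4908 and 4901 for stromal and 3440 and 3438 for endothelial markers. For monocyte and macrophage markers they were 33130 and 32971. Of the linear difference between group means of the 9 genes, 114.3 units came from Lpl, 44.5 from Cebpa and 34.4 from Fabp4. Without Lpl the sums were 1858, 1861 and 1978 against 1964, 1958 and 1998, which overlapped. No array was high or low across the genes: diabetic array 1 held the highest value of 3 genes, wild type array 1 and diabetic array 3 of 2 each, and each array held the lowest value of 1 or 2 genes.

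**Figure D5:**
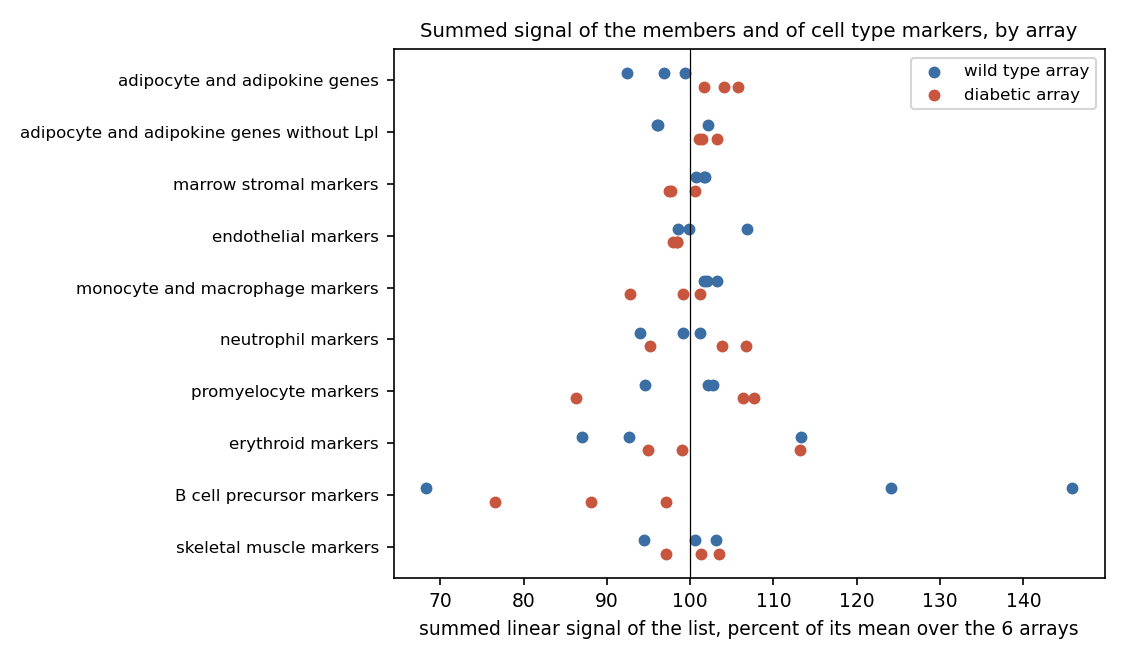
Summed linear signal of the 9 genes, of the same genes without Lpl and of cell type marker lists on each array, as percent of the mean of that sum over the 6 arrays. Blue points are wild type and red points diabetic arrays. The sums of the 9 genes do not overlap between groups with Lpl and do overlap without it. Those of stromal, endothelial, and monocyte and macrophage markers do not overlap either, though their edges are close. B cell precursor markers spread most between arrays of 1 group.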

How the data were processed

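RNA of flushed marrow was measured on Affymetrix whole-transcript arrays, 3 per group. The authors deposited 1 log2 signal per probe set and array. Per the submitters' processing notes, RMA was run in Affymetrix Expression Console. No version or genome build is given in the sources used here. RMA makes the arrays' distributions equal, so a shift shared by most genes cannot be seen. Of 35556 probe sets, 21789 had 1 symbol, 1621 several and 12146 none in the annotation of the platform. The brightest set by mean represented each gene, which gave 19938 genes.

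Groups were compared in R 4.3.3 with limma 3.58.1 (lmFit and eBayes) and data.table (version 1.17.8), with no covariate or level filter, and Benjamini-Hochberg adjustment over all 19938 genes. Errors of changes are standard errors of that fit, and intervals are its 95% intervals. It was tested on simulated data. Sums add linear signals (2 to the power of log2). Promoter windows came from RefSeq. Plots used Python 3.11.15 and matplotlib 3.10.9. Alternatives varied the filter, normalization, variance model, array weights, replicate block, features, threshold and arrays.

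Named were the 9 measured genes, up to 4 genes per list with the smallest p, and paralogs. Ucp1, Rag1, Rag2, Adgre1, Cx3cr1, Ccr2, Csf1r, Lepr, Lcn2, Cap1, Adipor1, and the comparison of sums with and without Lpl or Vcam1, were chosen after values were seen. The genes and lists were chosen with earlier results of these data known.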

Additional observations from a re-analysis of the deposited data

How the results depend on the processing

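None of the 9 genes passed the threshold of 0.05 on the limma p adjusted by Benjamini-Hochberg under any of 15 alternatives in which it was tested. The smallest adjusted p for Lpl over them was 0.0817, with array weights, the next was 0.422, without wild type replicate 1, and the largest rounded to 1. The count of all genes past the threshold, 57, was 35 with a level filter at the 60th percentile, 235 with array weights, 1 with all probe sets and 1176 at an unadjusted p under 0.05. Leaving out 1 array gave 3 to 71 (16 without wild type replicate 2, and 6, 3 and 14 without diabetic replicate 1, 2 and 3). With the replicate number as a block it was 7. Deviations of same-numbered arrays correlated at 0.24, 0.03 and -0.04, so the numbers were not taken to pair the samples. Of the list genes, 0 passed, but 6 did with array weights (Lrp1, Metrnl, Pdgfrb, Rag1, Siglec1 and C1qb), and when 1 array was left out the count ran from 0 to 3, the 3 being Ebf1, Rag1 and Rag2 without wild type replicate 3.

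Some changes turned sign, among them those of Kdr (-0.16 with all arrays at equal weight), Plin2 (-0.16) and Fabp5 (-0.24), and the cause was not tested. With array weights, where wild type array 2 had a weight of 4.38, Plin1 was at 0.03, Retn at -0.00, Fitm1 at 0.04, Kdr at 0.03, Fabp3 at 0.00, Plin5 at 0.01 and Cideb at 0.07. With a further quantile normalization Plin3 was at -0.00. When 1 array was left out, Plin1 ran from -0.04 to 0.03, Cidec from -0.04 to 0.14, Pparg from -0.11 to 0.06, Retn from -0.01 to 0.01, Fabp3 from -0.08 to 0.01, Fabp5 from -0.36 to 0.00 and Plin2 from -0.42 to 0.03. Plin3 ran from -0.07 to 0.08, Plin5 from -0.04 to 0.02, Cidea from -0.03 to 0.02 and Cideb from -0.08 to 0.03. Signals near the floor, those of Adipoq and Lep above all, limit what a difference there can show.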
